A study of Saccharomyces cerevisiae with 14 samples.

Results

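The proteasome is the protease that degrades ubiquitin-tagged proteins, and 33 genes of it were followed in budding yeast with wild-type or mutant SNF2. The list was given by name: 7 genes of the alpha ring and 7 of the beta ring of the core particle, 6 ATPase genes, 4 other genes of the base, 8 genes of the lid, and RPN4, which encodes the transcription activator of most of the others. All 33 were found among the 5871 nuclear protein-coding genes compared.

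SNF2 encodes the ATPase of SWI/SNF, a chromatin remodeller that slides and evicts nucleosomes. Nucleosomes were mapped by MNase-seq, in which micrococcal nuclease digests linker DNA and the nucleosome-protected DNA is sequenced. All strains were BY4741, a laboratory haploid, grown in YPD, a rich medium, at 30 °C. The groups were dAT (3 samples), dSnAC (3 samples), CD, a catalytic-dead SNF2 with the substitution K798A (3 samples), dSnf2 (2 samples) and WT (3 samples). The labels give dAT, dSnAC and dSnf2 as names only. They are read here as SNF2 without its AT-hook region, without its SnAC domain, and as a deletion of the gene. Each strain was represented by 1 list of nucleosome calls made by the authors on merged replicates. The dAT list merged replicates 2 and 3, the dSnAC list replicates 1 and 3, the dSnf2 list both replicates, and the CD and WT lists all 3. No value therefore has a replicate error, no test between strains was possible, and a difference between strains and one between library preparations cannot be told apart.

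The core particle is a barrel with a gated outer alpha ring at each end and inner beta rings that carry the proteolytic sites. The regulatory particle caps it, with a base of ATPases, scaffolds and ubiquitin receptors that unfold and feed substrates, and a lid that removes ubiquitin. In budding yeast, Rpn4 binds a promoter sequence named PACE (proteasome-associated control element) and is itself degraded by the proteasome, so that proteasome genes are raised when degradation is impaired. Active yeast promoters usually hold a nucleosome-depleted region between an upstream nucleosome, called -1, and the first nucleosome of the gene, called +1.

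Read back from the occupancy steps, the lists rested on 31879115 reads (dSnAC) to 64957209 reads (WT) in nuclear calls, with 514 to 1030 reads in the median call. Occupancy is given in units of the median call of each list, so that 1 is a typical nucleosome. As a check of the labels, the mean occupancy over SNF2 itself came to 0.00559 in dSnf2, with 124 reads, 0.796 in dAT, 0.731 in dSnAC and 0.732 in CD, against 0.663 in WT. The widest dyad spacing inside SNF2 was 380 bp in dAT and 675 bp in dSnAC, against 295 bp in WT, counting calls of at least 0.25 (the dyad is the centre of a nucleosome). The dSnf2 list thus holds almost no nucleosomes over the gene, and dSnAC and dAT have wider gaps within it than WT. The share of nuclear calls below 0.25 was 4.16% (dAT), 3.85% (dSnAC), 3.76% (CD), 3.60% (dSnf2) and 3.52% (WT).

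The proteasome genes had deeply depleted promoters in every strain. In the mean profile over the 33 genes, occupancy reached its minimum 160 bp before the start codon, at 0.021 in dAT, 0.024 in dSnAC, 0.026 in CD, 0.030 in dSnf2 and 0.037 in WT. Most of each of these values came from RPN4, whose call near -210 bp covers this position. Their order over the strains is thus largely that of RPN4 and not of the other members. Over all genes the minimum lay at -130 bp, with 0.352, 0.379, 0.408 and 0.436 in the same mutants, against 0.465 in WT. In these mean profiles the trough of the proteasome genes was thus lower than the genome average in all 5 lists, WT included. Means at a fixed distance from the start codon also depend on how well depleted regions line up between genes. This was not separated from their depth.

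**Figure D1:**
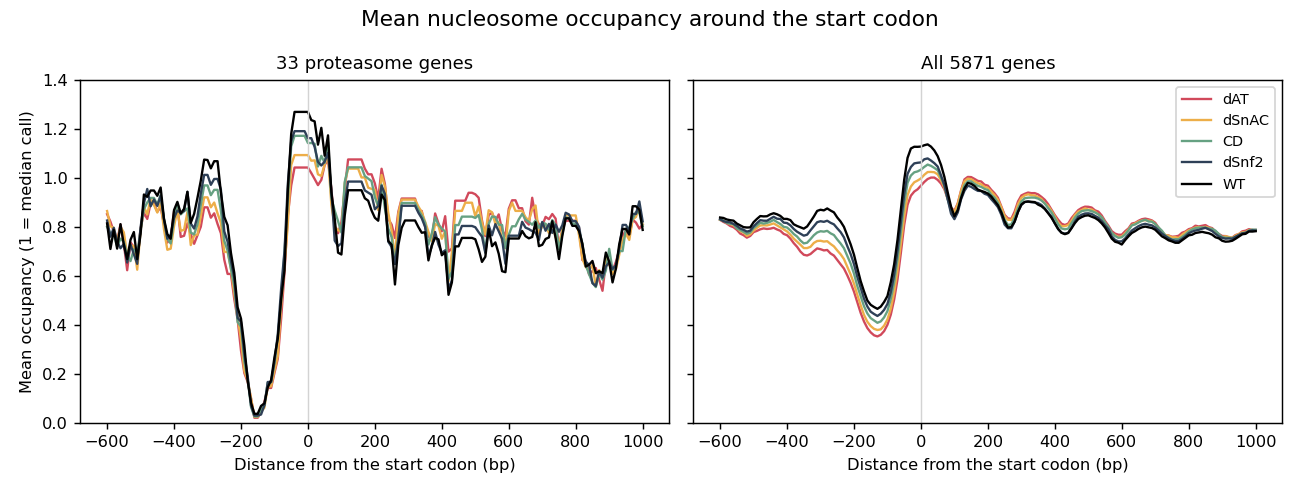
Mean nucleosome occupancy (1 = median call of the list) by distance from the start codon in bp, for the 33 proteasome genes (left) and all genes (right), with 1 line per strain. The proteasome genes fall to between 0.021 and 0.037 at -160 bp in all 5 lists, and most of this remainder is RPN4. The nucleosomes on both sides of the trough are lowest in dAT and highest in WT.

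Taken gene by gene, 22 of 33 members had a mean occupancy below 0.1 between 200 and 100 bp before the start codon in WT, as did 26.1% of all genes. The mutants had 23 (dAT), 22 (dSnAC), 22 (CD) and 22 (dSnf2) such members, beside 31.9%, 30.5%, 28.9% and 27.8% of all genes. In this window the most occupied member was RPN4 itself, at 0.610 in dAT, 0.613 in dSnAC, 0.658 in CD, 0.682 in dSnf2 and 0.757 in WT. PRE9 and PRE1 (core subunits) and RPN1 (a scaffold of the base) had no call reaching this window in any of the 5 lists. The trough left little occupancy to lose, and the differences between strains lay mostly in the nucleosomes that border it.

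Over the whole promoter, taken as -300 to -1 bp of the start codon, the members lay lower than in WT in all 4 mutants, by small amounts. Their median promoter occupancy was 0.562 in dAT, 0.602 in dSnAC, 0.619 in CD, 0.622 in dSnf2 and 0.686 in WT. The median log2 ratio, computed as log2((mutant + 0.1) / (WT + 0.1)), was -0.21 (dAT), -0.18 (dSnAC), -0.11 (CD) and -0.068 (dSnf2). Over all genes it was -0.30, -0.23, -0.15 and -0.085. The proteasome promoters therefore shared the genome-wide decrease and its order over the mutants. Their median was 0.089, 0.051, 0.037 and 0.017 nearer to WT than that of all genes. The 95% order-statistic interval of the members' median was -0.37 to -0.18 (dAT), -0.26 to -0.15 (dSnAC), -0.1494 to -0.071 (CD) and -0.11 to -0.016 (dSnf2). It held the median of all genes in each mutant, in CD only just (-0.1488). The offset is thus not read as a trait of the members. The size of this offset depended on the window. With -400 to -1 bp it was 0.0080 (dAT), 0.016 (dSnAC), 0.044 (CD) and 0.013 (dSnf2), and with -200 to -1 bp it was 0.025, 0.047, 0.046 and 0.043. Without calls below 0.25, whose share differed between the lists in the order of the medians, the members' medians were -0.20 (dAT), -0.17 (dSnAC), -0.10 (CD) and -0.068 (dSnf2), about as large and in the same order. With the same floor on both sides of the ratio, changes of promoters with low occupancy are understated.

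Of the 33 promoters, 30 (dAT), 31 (dSnAC), 31 (CD) and 25 (dSnf2) were below WT, where 90.0%, 89.1%, 87.1% and 80.4% of all genes were. A log2 ratio of -0.58 or lower, about 1.49-fold lower, was reached by 2 members in dAT, PRE2 and RPN3, with 11.0% of all genes past it. No member reached it in dSnAC, CD or dSnf2, beside 3.76%, 0.630% and 0.307% of all genes. A ratio of -0.32 or lower was reached by 13 members in dAT (45.6% of all genes) and 9 in dSnAC (30.7%), and by 0 members in CD (9.13%) and 0 in dSnf2 (1.89%). With 33 members these counts are small, and their lying below the shares of all genes was not tested and is not read as a trait of the members. Counting error alone gave the members' log2 ratios a 95% half-width between 0.093 and 0.21 over the 4 mutants. The ratio was within it for 5 members in dAT and 10 in dSnAC, and for 18 in CD and 25 in dSnf2. These counts are upper limits, since the 0.1 added to both sides makes ratios smaller and the half-width does not allow for it. They were made for the members only, without a share of all genes, and are not read as a trait of the members. Many single promoters of CD and dSnf2 thus may not have differed from WT by more than counting error.

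**Figure D2:**
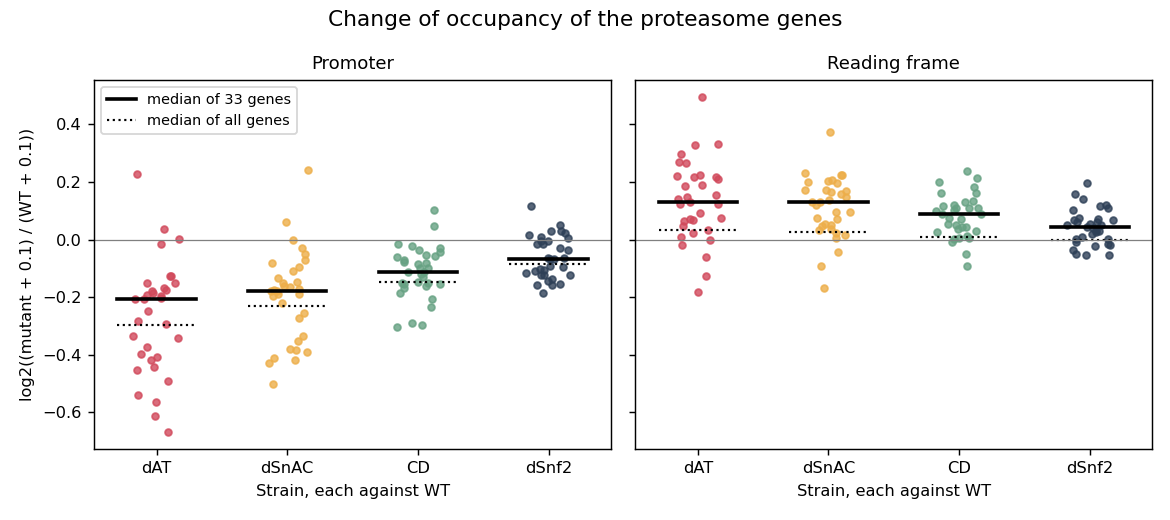
Log2 ratio of occupancy against WT for each of the 33 proteasome genes (1 point per gene), in the promoter (left) and over the reading frame (right), for the 4 mutants. Solid bars are the median of the 33 genes and dotted bars the median of all genes. Promoter medians run from -0.21 in dAT to -0.068 in dSnf2 and frame medians from 0.13 in dAT to 0.043 in dSnf2.

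The 3 genes of the proteolytic beta subunits differed in how far their promoters were from WT. PRE2, which encodes the subunit with chymotrypsin-like activity (YPR103W, chromosome XVI, 732349 to 733212, plus strand, sacCer3), had promoter occupancy 0.188 in dAT, 0.242 in dSnAC, 0.271 in CD, 0.312 in dSnf2 and 0.358 in WT. Its log2 ratio was -0.67, -0.42, -0.30 and -0.15 in that order, with a counting half-width of 0.21 in dAT. PRE2 had the lowest ratio of all 33 members in dAT, and its level was highest in WT.

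PRE3, which encodes the subunit with caspase-like activity (YJL001W, chromosome X, 435163 to 435926, plus strand), had the most occupied promoter of the list in WT. Its occupancy was 0.682 in dAT, 0.773 in dSnAC, 0.830 in CD, 0.901 in dSnf2 and 1.04 in WT. Its log2 ratios were -0.54, -0.38, -0.29 and -0.18. Both bordering nucleosomes were lower than in WT. The -1 call, 249 bp before the start codon in WT, had occupancy 0.965 in dAT, 1.13 in dSnAC, 1.20 in CD, 1.36 in dSnf2 and 1.62 in WT. The +1 call had 1.12, 1.27, 1.34 and 1.38 in the mutants, against 1.58 in WT.

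PUP1, which encodes the subunit with trypsin-like activity (YOR157C, chromosome XV, 630966 to 631751, minus strand), was closer to WT. Its promoter had 0.321 in dAT, 0.319 in dSnAC, 0.330 in CD, 0.344 in dSnf2 and 0.378 in WT. The log2 ratios of -0.18 (dAT), -0.19 (dSnAC) and -0.16 (CD) were just past their counting half-widths of 0.17, 0.18 and 0.15, and that of -0.11 in dSnf2 was within its 0.17. Over the whole beta ring all 7 promoters were below WT in dAT, dSnAC and CD, and 6 of 7 in dSnf2, with medians of -0.40, -0.19, -0.16 and -0.11.

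The alpha ring held the member whose promoter was highest relative to WT by the mean log2 ratio over the 4 mutants, 0.16, although in CD the ATPase gene RPT4 was higher. PRE10 (YOR362C, chromosome XV, 1017880 to 1018746, minus strand) had promoter occupancy 0.659 in dAT, 0.666 in dSnAC, 0.570 in CD, 0.602 in dSnf2 and 0.548 in WT. The log2 ratios were 0.23, 0.24, 0.048 and 0.12, with counting half-widths of 0.13, 0.14, 0.12 and 0.13. In dAT and dSnAC it stood at the 98.2 and 98.3 percentile of all genes. The other 6 alpha promoters lay below WT in dAT, dSnAC and CD. SCL1, which encodes another alpha subunit, was the lowest of them in dAT, with 0.532 in dAT, 0.602 in dSnAC, 0.695 in CD, 0.777 in dSnf2 and 0.834 in WT. The alpha ring thus spanned -0.56 to 0.23 in dAT, a range in which its median of -0.21 says little of single genes.

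Positions differed at PRE10 as well as levels. Its -1 dyad lay at -279 bp in dAT and -269 bp in dSnAC, while it lay at -312 bp in CD, -310 bp in dSnf2 and -308 bp in WT. This call had occupancy 1.27 in dAT, 1.12 in dSnAC, 1.33 in CD, 1.34 in dSnf2 and 1.18 in WT. The next dyad upstream lay at -427 and -417 bp in dAT and dSnAC and at -460 and -458 bp in CD and dSnf2, against -456 bp in WT. The 2 calls were 148 bp apart in all 5 lists, the smallest spacing of any neighbouring calls in these lists, so the place of the second adds no separate observation. The -1 call thus sat nearer to the gene in dAT and dSnAC than in the other 3 lists, and its footprint extended further into the promoter window. The +1 dyad lay at -11 bp in dAT, -14 bp in dSnAC, -13 bp in CD, -14 bp in dSnf2 and -11 bp in WT. A weak call of 39 reads in CD and 22 reads in dSnf2, against 34 reads in WT, sat at -164, -162 and -160 bp, and none was listed there in dAT and dSnAC. In those lists the -1 and +1 dyads were 268 bp (dAT) and 255 bp (dSnAC) apart, which left no room for a call 148 bp or more from both. The absence of the weak call there thus adds no separate observation either.

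**Figure D3:**
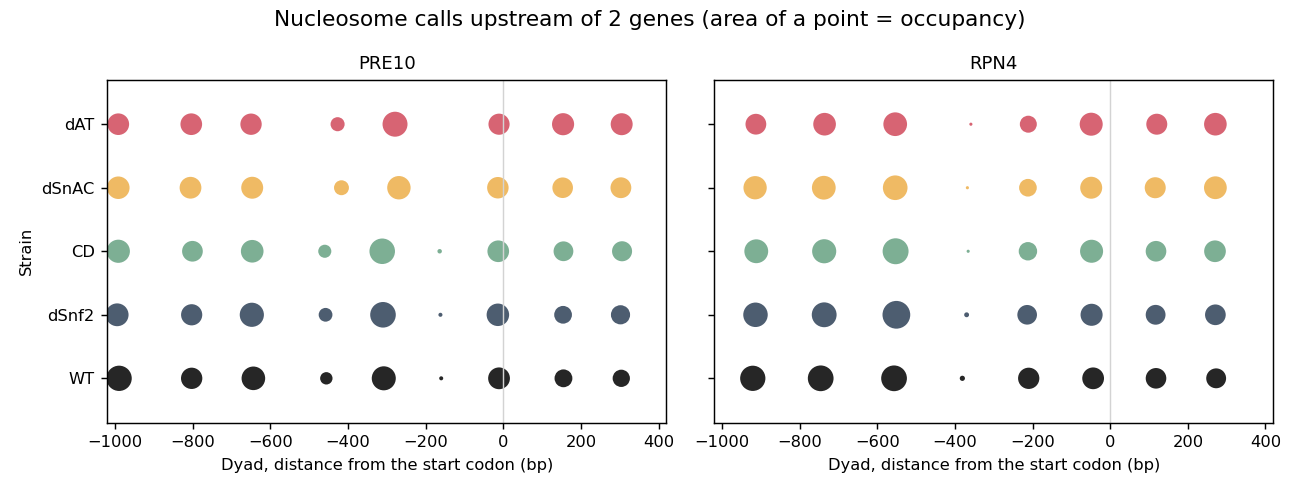
Nucleosome calls around PRE10 (left) and RPN4 (right) in each strain, by distance of the dyad from the start codon in bp, with the area of a point in proportion to its occupancy. At PRE10 the upstream calls of dAT and dSnAC sit to the right of those of the other 3 strains (-279 and -269 bp, against -308 bp in WT), and at RPN4 the call near -210 bp is smallest in dAT and largest in WT.

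Among the 6 ATPase genes of the base, 5 promoters were below WT in dAT, dSnAC and CD and 4 in dSnf2, with medians of -0.32, -0.20, -0.13 and -0.020. The exception throughout was RPT4 (YOR259C, chromosome XV, 812395 to 813708, minus strand), with 0.570 in dAT, 0.582 in dSnAC, 0.600 in CD, 0.567 in dSnf2 and 0.553 in WT. With the pseudocount, which makes them smaller, its log2 ratios of 0.038, 0.063, 0.10 and 0.030 were within the counting half-width of 0.12 to 0.14. At this gene the +1 call was lower than in WT, at 0.923 in dAT, 1.04 in dSnAC, 1.04 in CD, 1.01 in dSnf2 and 1.15 in WT. The -1 call was higher, at 1.18, 1.18, 1.22 and 1.12, against 1.04 in WT. RPT4 shares 275 bp of intergenic DNA with the divergent gene GCD1, so its -1 dyad, 274 bp before the start codon in WT, lies beside the start codon of that neighbour.

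The 4 other base genes comprise the scaffolds RPN1 and RPN2 and the ubiquitin receptors RPN10 and RPN13. Their promoter log2 ratios spanned -0.34 to 0.003 (dAT), -0.19 to -0.051 (dSnAC), -0.10 to -0.061 (CD) and -0.12 to 0.052 (dSnf2). RPN10 had occupancy 0.839 in dAT, 0.805 in dSnAC, 0.774 in CD, 0.761 in dSnf2 and 0.837 in WT. It ran against the order of most members, with dAT at the WT level and dSnf2 lowest, and its ratio of -0.12 in dSnf2 was about the size of the counting half-width, 0.11.

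In the lid, all 8 promoters were below WT in dAT, dSnAC and CD, and 7 in dSnf2, with medians of -0.19, -0.16, -0.10 and -0.080. RPN3 (YER021W, chromosome V, 196948 to 198519, plus strand) was the lowest member of the list by the mean over the 4 mutants, -0.39. Its promoter had 0.291 in dAT, 0.322 in dSnAC, 0.387 in CD, 0.435 in dSnf2 and 0.497 in WT, and its log2 ratios were -0.61, -0.50, -0.30 and -0.16. The larger difference was in the -1 call near -289 bp, with 0.424 in dAT, 0.510 in dSnAC, 0.633 in CD, 0.739 in dSnf2 and 0.920 in WT. The +1 call differed less, with 0.939, 0.992, 1.09 and 1.09, against 1.16 in WT. RPN12 was at the other end of the lid, with 0.622 in dAT, 0.629 in dSnAC, 0.619 in CD, 0.599 in dSnf2 and 0.630 in WT, and ratios between -0.063 and -0.0006.

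RPN4, the activator gene (YDL020C, chromosome IV, 415113 to 416708, minus strand), did not share the deep trough of most other members. Its promoter occupancy was 0.730 in dAT, 0.714 in dSnAC, 0.778 in CD, 0.788 in dSnf2 and 0.831 in WT, and its log2 ratios were -0.17, -0.19, -0.085 and -0.069. A nucleosome at -210 bp reached into the position of the trough of the other members. It had occupancy 0.590 in dAT, 0.638 in dSnAC, 0.694 in CD, 0.788 in dSnf2 and 0.926 in WT. The next nucleosome, with its dyad 44 to 49 bp before the start codon, did not follow it, at 1.08 in dAT, 0.986 in dSnAC, 1.08 in CD, 0.995 in dSnf2 and 0.968 in WT. Upstream of -210 bp came a wide interval with 1 weak call (1 read in dAT, 7 in dSnAC, 14 in CD, 32 in dSnf2 and 57 in WT) and then a dyad at -554, -554, -553 and -551 bp, against -557 bp in WT. That call also differed between the lists, with 1.15 in dAT, 1.24 in dSnAC, 1.38 in CD, 1.57 in dSnf2 and 1.35 in WT. The wide interval is centred outside the range searched for depleted regions below.

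**Figure D4:**
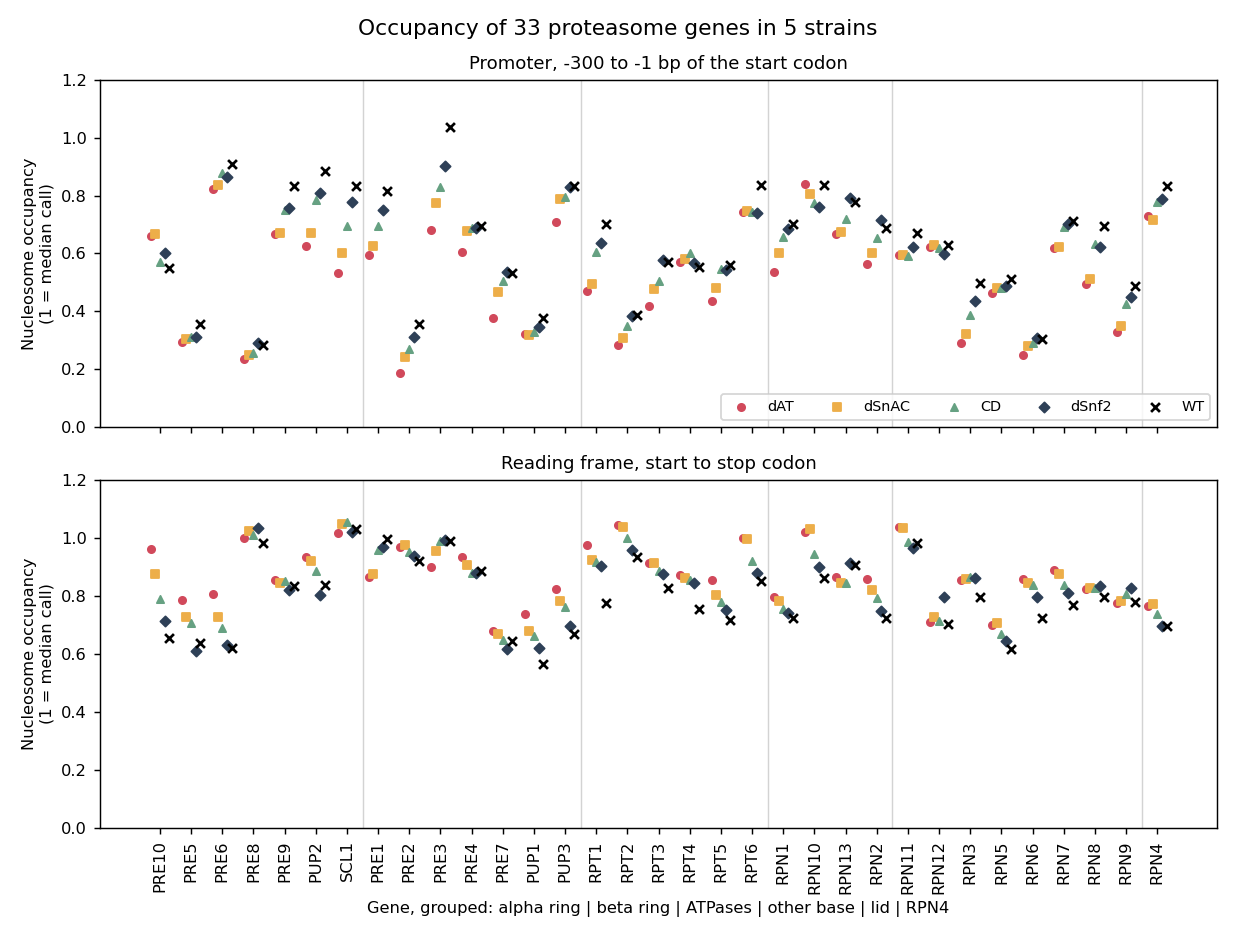
Mean nucleosome occupancy (1 = median call) of each of the 33 genes in the 5 strains, over the promoter (top) and over the reading frame (bottom), with genes grouped by role. WT (crosses) is the highest point in most promoters and among the lowest in most frames, with PRE10 and RPT4 among the exceptions in the promoter panel.

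Over the reading frames the order of the strains was the opposite, with the proteasome genes higher in the mutants than in WT. The median frame occupancy was 0.867 in dAT, 0.857 in dSnAC, 0.846 in CD, 0.826 in dSnf2 and 0.778 in WT, and over all genes it was 0.895, 0.891, 0.882 and 0.868, against 0.865 in WT. The median log2 ratio of the members was 0.13, 0.13, 0.090 and 0.043, beside 0.035, 0.026, 0.010 and -0.003 for all genes. In WT the proteasome genes were thus less occupied over their frames than the typical gene, and in dAT most of that difference was gone.

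Of the 33 frames, 28 (dAT), 30 (dSnAC), 30 (CD) and 25 (dSnf2) were above WT, where 57.4%, 56.9%, 54.1% and 46.4% of all genes were. A log2 ratio of 0.32 or more was reached by 3 members in dAT (7.49% of all genes) and 1 in dSnAC (4.28%), and by 0 members in CD (2.20%) and 0 in dSnf2 (1.43%). The members were thus more often above WT than genes in general, by small amounts each. Because genes with low frame occupancy had higher ratios in general, all genes were also divided into 5 equal classes by frame occupancy averaged over the 5 lists, and the members were read within each. In dAT the 8 members of the lowest class had a median of 0.21, beside 0.085 for all genes of that class, and the 10 members of the next class had 0.19, beside 0.083. In the 3 higher classes the members had 0.11, 0.069 and 0.049, beside 0.046, -0.004 and -0.020. The members' median was above that of all genes in each class in dAT, dSnAC, CD and dSnf2.

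PRE10 had the largest frame ratio of the list in dAT, dSnAC and CD. Its frame occupancy was 0.963 in dAT, 0.876 in dSnAC, 0.789 in CD, 0.713 in dSnf2 and 0.653 in WT, and its log2 ratios were 0.50, 0.37, 0.24 and 0.11, with a counting half-width of 0.065 in dAT. The call 155 bp into the gene in WT stood highest in dAT, with 1.00 in dAT, 0.866 in dSnAC, 0.798 in CD, 0.643 in dSnf2 and 0.650 in WT. PUP1 was next in dAT, while RPN10 was next in dSnAC and RPT1 in CD. PUP1 had 0.737 in dAT, 0.677 in dSnAC, 0.663 in CD, 0.621 in dSnf2 and 0.565 in WT, the lowest frame of the list in WT. PRE6, an alpha subunit gene, had 0.806, 0.728, 0.690 and 0.630, against 0.621 in WT. RPT1, an ATPase gene, differed from these in having its largest part already in dSnf2, with 0.977, 0.926, 0.918 and 0.905, against 0.777 in WT.

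By role, all 6 ATPase frames were above WT in each of the 4 mutants, with medians of 0.20 (dAT), 0.16 (dSnAC), 0.11 (CD) and 0.067 (dSnf2). Of the 7 beta frames 5 were above WT in dAT, dSnAC and CD and 4 in dSnf2, and of the 7 alpha frames 6, 7, 7 and 3 were. The exceptions in dAT were PRE1 (0.867, against 0.996 in WT), PRE3 (0.899, against 0.990 in WT), RPN13 (0.867, against 0.908 in WT), SCL1 (1.02, against 1.03 in WT) and RPN9 (0.777, against 0.778 in WT). PRE1, PRE3 and SCL1 were among the most occupied frames of the list in WT.

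Relative to WT, the excess over the frames lay mostly beyond the first nucleosome. In the first 200 bp of the gene the members' median log2 ratios lay between -0.026 (dSnf2) and 0.028 (CD). For all genes they were -0.035 (dAT), -0.028 (dSnAC), -0.031 (CD) and -0.037 (dSnf2), so the members' medians were already higher than these in each mutant. From 200 to 500 bp their median occupancy was 0.897 in dAT, 0.864 in dSnAC, 0.841 in CD, 0.795 in dSnf2 and 0.750 in WT, with median log2 ratios of 0.17, 0.12, 0.11 and 0.043. All genes had 0.039, 0.032, 0.017 and 0 there. Past the stop codon the sign turned: between 100 and 200 bp beyond it the members had 0.455 in dAT, 0.503 in dSnAC, 0.552 in CD, 0.579 in dSnf2 and 0.680 in WT. All genes had 0.488, 0.545, 0.619 and 0.671 there, against 0.724 in WT. The flanks of the proteasome genes on both sides were thus less occupied, and their interior more occupied, in the mutants than in WT.

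The nucleosomes that border the depleted region were less occupied than in WT and mostly in the same places. For calls of at least 0.25, the members' +1 calls had a median occupancy of 1.04 in dAT, 1.11 in dSnAC, 1.16 in CD, 1.22 in dSnf2 and 1.24 in WT, with median log2 ratios of -0.28, -0.19, -0.13 and -0.089. All genes had -0.26, -0.20, -0.14 and -0.089, so the members did what +1 calls did in general. The -1 calls had median log2 ratios of -0.31, -0.20, -0.17 and -0.096 in the members, beside -0.30, -0.24, -0.16 and -0.094 in all genes. No +1 dyad of a member lay 20 bp or more from its WT place in any mutant, while 4.91% (dAT), 4.30% (dSnAC), 4.46% (CD) and 4.84% (dSnf2) of all genes had one that did. The largest displacement of a member's +1 dyad was 9 bp (dAT), 10 bp (dSnAC), 12 bp (CD) and 8 bp (dSnf2).

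The depleted region was measured as the widest spacing of neighbouring dyads centred between -350 and 50 bp of the start codon. Among calls of at least 0.25 its median width over the members was 284 bp in dAT, 281 bp in dSnAC, 284 bp in CD, 278 bp in dSnf2 and 281 bp in WT. All genes had 268, 267, 265 and 265 bp, against 266 bp in WT. A change of 20 bp or more was found in 2 members in dAT (14.5% of all genes) and 4 in dSnAC (12.5%), and in 2 members in CD (11.8%) and 1 in dSnf2 (11.6%). These belonged to PRE10, PRE2, RPT2 and RPN2. By this measure the narrowest region in WT was that of RPN4, with 166 bp. That is the spacing of its calls at -210 and -44 bp, since its wide upstream interval is centred outside the range searched. The widest was that of PRE2, with 548 bp, in the 600 bp that PRE2 shares with the divergent ribosomal protein gene RPL11A.

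At PRE2 the far border lay farther out in 2 mutants: its -1 dyad lay at -598 bp in dAT, -600 bp in dSnAC, -581 bp in CD, -577 bp in dSnf2 and -580 bp in WT. At RPN2 (YIL075C, chromosome IX, 217863 to 220700, minus strand) the -1 dyad lay nearer to the gene in all 4 mutants, at -298, -295, -297 and -295 bp, against -316 bp in WT, with occupancy 0.769, 0.802, 0.909 and 0.983, against 1.16 in WT. Its +1 dyad stayed at -8, -7, -8 and -9 bp, against -7 bp in WT. Here and throughout, the 4 mutants were set against the same WT list, so agreement between them is not 4 separate observations. At RPT2 the change of width came from the level of 1 call and not from a move, since the call near -262 bp had 0.157 in dAT, 0.214 in dSnAC, 0.246 in CD, 0.303 in dSnf2 and 0.297 in WT, on both sides of the limit of 0.25.

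Counting every call, however weak, gave more differences at these promoters, most of which rested on few reads. The median width was then 271 bp in dAT, 271 bp in dSnAC, 267 bp in CD, 267 bp in dSnf2 and 266 bp in WT, with 241 or 242 bp over all genes. In WT 13 of 33 regions were bordered by a call below 0.25, beside 20.2% of all genes. By this measure PRE10 was the narrowest region in WT, at 149 bp, and RPT4 the widest, at 293 bp. Regions wider by 20 bp or more numbered 7 in dAT (9.24% of all genes) and 4 in dSnAC (8.22%), with 2 each in CD (6.51%) and dSnf2 (6.53%), and narrower ones 0 (8.51%), 2 (7.66%), 1 (6.70%) and 0 (6.03%). The widest spacing was at another place in 5, 4, 4 and 4 members, beside 16.6%, 15.4%, 14.3% and 12.9% of all genes.

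PRE4 and RPN2 show how such counts arose. In WT each had a call of 20 reads (PRE4) or 24 reads (RPN2) in the middle of its trough, and no call was listed there in the 4 mutants, so both regions counted as wider in all of them. Between the bordering calls of at least 0.25, however, the spacing was 298 bp (PRE4) and 309 bp (RPN2) in WT. In the mutants it was narrower, at 285 to 290 bp (PRE4) and 286 to 290 bp (RPN2). With no spacing below 148 bp in any list, no room was left there for a call, so its absence adds no separate observation. With every call counted, the +1 dyad was 20 bp or more from its WT place in 0 of the 31 members with a partner call in dAT (6.91% of all genes). It was so in 2 members each in dSnAC (6.05%), CD (5.89%) and dSnf2 (6.15%). They were PRE7 (-28 bp in dSnAC and -38 bp in dSnf2), RPN6 (-35 bp in dSnAC, -68 bp in CD and -61 bp in dSnf2) and RPN5 (-21 bp in CD). PRE7 and RPN6 are also the 2 members whose WT call had no partner in dAT, so the 0 there does not cover them. In each case the displaced call was a weak one inside the trough, for example 2, 8 and 8 reads at RPN6 in dSnAC, CD and dSnf2, against 14 reads in WT. Over the members, calls below 0.25 inside the region were present in 8 genes in dAT, 10 in dSnAC, 11 in CD, 10 in dSnf2 and 12 in WT. Of all genes, 24.3% (dAT), 23.5% (dSnAC), 22.8% (CD), 22.3% (dSnf2) and 22.7% (WT) had such calls. Where present in the members, they held a median of 10.5, 6, 21 and 22.5 reads in the mutants, against 36 reads in WT. These reads are not scaled for depth. The median call held 637 (dAT), 514 (dSnAC), 957 (CD) and 659 (dSnf2) reads, against 1030 in WT, so part of the difference is depth.

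The mutant with the lowest promoters, dAT, and dSnf2 were also set against each other. The promoters of the members had a median log2 ratio of -0.22 between dAT and dSnf2, as did all genes, and 28 of 33 were lower in dAT, beside 87.9% of all genes. Their frames had a median ratio of 0.099, beside 0.031 for all genes, with 9 of 33 lower in dAT, beside 39.4% of all genes. By these medians the proteasome genes were closer to WT in dSnf2 than in dAT.

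Most of these promoters are shared with a divergent neighbouring gene. Of the 33 upstream neighbours 21 are divergent and 12 tandem, and the intergenic distance was 219 bp (RPN10) to 1822 bp (PRE1), with a median of 383 bp. In 9 genes it was shorter than the promoter window of 300 bp, so that part of the window covered the neighbour. The 12 tandem members had median promoter log2 ratios of -0.31 (dAT), -0.21 (dSnAC), -0.12 (CD) and -0.049 (dSnf2), and the 21 divergent ones had -0.20, -0.17, -0.10 and -0.068. Relative to all genes, of both orientations, the dAT median of the tandem members was -0.013, in place of 0.089 over all 33. PRE4 and RPN12 have the same upstream neighbour, RET2, on either side of it.

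Genes that work with the proteasome were described by a list of 29, with 16 for assembly or association and 13 for ubiquitin and delivery. Their median promoter log2 ratio was -0.30 (dAT), -0.21 (dSnAC), -0.13 (CD) and -0.078 (dSnf2). A ratio of -0.58 or lower was reached by 3 of 29 (dAT), 1 (dSnAC), 0 (CD) and 0 (dSnf2), beside 11.0%, 3.76%, 0.630% and 0.307% of all genes. A ratio of 0.58 or more was reached by 0 of them in each mutant, beside 0.204%, 0.307%, 0.528% and 0.715% of all genes. HSM3, an assembly chaperone of the base, stood apart, with 0.351 in dAT, 0.472 in dSnAC, 0.602 in CD, 0.701 in dSnf2 and 0.851 in WT, and log2 ratios of -1.08, -0.73, -0.44 and -0.25. No proteasome gene of the 33 had a ratio as low in dAT or dSnAC.

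The other genes past that limit, in dAT, were UFD1, a partner of Cdc48 in extracting ubiquitinated proteins, and RPN14, another assembly chaperone. UFD1 had 0.266 in dAT, 0.313 in dSnAC, 0.340 in CD, 0.358 in dSnf2 and 0.469 in WT, and a log2 ratio of -0.64 in dAT. RPN14 had 0.598, 0.690, 0.798 and 0.915, against 0.953 in WT, and a ratio of -0.59 in dAT. UBR2 and MUB1, whose products mark Rpn4 for degradation, had promoter log2 ratios of -0.49 and -0.34 in dAT and of -0.16 and 0.028 in dSnf2. Over the reading frame, of the ubiquitin and delivery genes, 11, 12, 11 and 11 of 13 were above WT in dAT, dSnAC, CD and dSnf2, and of the assembly genes 5, 8, 5 and 6 of 16 were, beside 57.4%, 56.9%, 54.1% and 46.4% of all genes. The first share lay above that of all genes in each mutant and the second below it, and the difference between the groups was not tested.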

How the data were processed

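MNase-seq was done on 14 samples in 5 groups. Per the submitters' processing notes, Bowtie (an aligner) and the yeast build sacCer3 were used. The caller, its filters and its scaling were not given in the sources used here, so they enter no statement. The occupancy of a call is a coverage signal deposited by the authors. The dyad and its SD are positions in bp, per the file headers. The deposited lists may count positions from 0, which would move distances by 1 bp. Each list was made by the authors on merged replicates.

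Each list's smallest occupancy was taken as 1 read, since 100% of its occupancies were whole multiples of that value (tolerance 0.01). Half-widths cover counting error only and do not allow for the pseudocount in the ratios. Values were scaled to the median nuclear call of the list outside the ribosomal DNA and drawn as 147 bp footprints. Genes came from a RefSeq table of assembly R64 (6002 nuclear coding genes, 131 in the outer 10 kb of chromosomes left out), with strands read from the letter W or C in each locus name. Frames run from start to stop codon, introns included. Position 0 is the first base of the start codon. A dyad and its partner in another list were mutually nearest and at most 73 bp apart. The share of all genes past a limit stands beside the first count of members past it.

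Genes named with values were RPN4, the 3 active-site genes, the 3 highest and 3 lowest members by mean promoter ratio, members past 0.58 or with a +1 shift of 20 bp, the widest and narrowest regions, the largest frame ratios and pathway genes past 0.58. SCL1, RPN10, RPN2, RPT2, PRE4, PRE9, RPN1, the frames below WT, UBR2 and MUB1 were named after their values were seen. The members and lists were chosen with earlier results of these data known. Computations used Python 3.11.15, numpy 2.4.6 and pandas 2.3.3, and the measures were tested on simulated data.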

Additional observations from a re-analysis of the deposited data

How the results depend on the processing

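Other settings were tried for the scaling, the pseudocount, the window, weak calls, the footprint, the set of members, the size limits and the matching of dyads, 140 values in all. Of these 128 kept their direction and stayed within the 95% order-statistic interval of the members' median or, for counts, within 1.5 times. That interval is wide, and 9 of the 128 still moved by over 1.5 times. The dAT promoter offset from all genes (0.089) was 0.0080 with the window -400 to -1 bp and 0.025 with -200 to -1 bp. That of dSnAC (0.051) was 0.016 with -400 to -1 bp and 0.022 among genes with a tandem neighbour. That of dSnf2 (0.017) was 0.043 with -200 to -1 bp, 0.036 among tandem genes and 0.029 with a shorter footprint. The dSnf2 promoter median was -0.037 with -200 to -1 bp, in place of -0.068, and the median change of region width in CD was -1 bp, in place of -2 bp, with gaps centred from -250 bp. With a pseudocount of 0.25 the promoter medians were -0.17 (dAT) and -0.14 (dSnAC). The number of promoters at or beyond 0.58 in dAT was 1 without calls below 0.25, 0 with the pseudocount of 0.25, 1 among genes with a tandem neighbour and 13 with a limit of 0.32, and in dSnAC it was 9 with that limit. Among members with a tandem neighbour the dAT promoter median was -0.013 relative to all genes, in place of 0.089. Here all genes include both orientations, and tandem members were not set against tandem genes. Whether the lower value belongs to the members or to tandem promoters in general was therefore not tested. Regions changed by 20 bp or more numbered 2 in dAT and 1 in dSnf2 without calls below 0.25, in place of 7 and 2. With dyads matched within 50 bp, 1 +1 dyad was displaced in CD and 1 in dSnf2. The cause of these differences was not tested, except that the weak calls named above set the region counts. Scaling by the genome mean turned no direction. The 3 alternatives on PACE sites were not run, since no promoter sequences were used here. No paired analysis was possible because each strain has 1 list of calls on merged replicates. Depth limits single genes: calls of a few reads in the depleted regions cannot be told from missing ones.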
